A study of Mus musculus with 17 samples.

Results

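The red cell membrane and blood group genes Slc4a1, Epb42, Ank1, Sptb, Rhag, Rhd, Kel and Ermap were described across 17 RNA-seq libraries of mouse erythroid blasts. They were taken by gene name from the 2 deposited count tables, and all 8 of 8 were found among the 22088 genes that both tables list. Each library came from 1 mouse (named by the end of its title, such as preleukemic_445), whose blasts carried a Spi1 transgene (Spi1 encodes the transcription factor PU.1) and were kept in culture with erythropoietin (EPO), the hormone that sustains erythroid progenitors. Model 1 had the strain DBA2JxFVB/N and 3 groups: 4 preleukaemic mice with intact Fanca (TgSpi1Fanca.wt in the labels, TgSpi1FA+/+ here), and 3 preleukaemic and 3 leukaemic mice with deleted Fanca (TgSpi1Fanca.ko, TgSpi1FA-/-), a gene of the Fanconi anaemia DNA repair pathway. Model 2 had the strain DBA2J and TgSpi1FA+/+ mice alone, 4 preleukaemic and 3 leukaemic, where leukaemia arose after serial blood transfusions. By the labels the transgene was thus in all 5 groups, no group without it was measured, and ages are not given in the labels. The models also differ in library protocol (more input RNA and longer fragmentation in model 1). In this study preleukaemic blasts are those that depend on EPO and form no tumour, so a stage is a property of cells grown out of the diseased spleen of 1 mouse, and fewer cells of a maturation stage and less RNA per cell cannot be told apart in such bulk libraries.

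The red cell membrane is a lipid bilayer tied to a network of spectrin beneath it. Band 3, the anion exchanger encoded by Slc4a1, spans the bilayer and is held to spectrin by ankyrin, and the Rh proteins sit in the same complex. Many of these surface proteins carry blood group antigens, and their genes are switched on step by step as erythroid progenitors mature, under factors such as GATA1 and KLF1, with band 3 reaching high levels later than ankyrin and spectrin. Blasts blocked at a progenitor stage are therefore described here by which parts of this membrane they transcribe. Inherited loss of band 3, ankyrin, spectrin or Epb42 is known to cause spherocytosis.

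Libraries held 29964576 to 38217654 counts in model 1 and 37726753 to 40514205 in model 2. Levels are given as CPM, counts per 1000000 counts of the TMM-scaled library (TMM is the normalization of edgeR), and fold changes as log2 values with their standard error (SE), and the values of model 1 and model 2 were normalized separately. Fanca had 29.5, 28.2, 71.4 and 83.5 CPM in the TgSpi1FA+/+ and 0.615 to 2.30 CPM in the 6 TgSpi1FA-/- libraries of model 1, which fits their genotype labels, although the column names and a part of the labels of preleukemic_77, preleukemic_224 and preleukemic_40 say leukaemic and only the titles and 1 other label say preleukaemic. The study's own text names these mice preleukaemic as well. Spi1 lay between 103 and 1061 CPM except in the leukaemic mouse leukemic_39, which had 3.88 CPM. This level (4.67 CPM in the second deposited table) is low for a library whose label gives the transgene, and whether the transgene was absent or little transcribed was not tested. Without this library 2 of the 8 genes, Ermap and Ank1, were called between leukaemic and preleukaemic TgSpi1FA-/- cells in place of 3. The libraries preleukemic_445 and preleukemic_479 stood unusually close to each other (chi-square of their counts divided by its degrees of freedom 8.53), against 114 to 372 for other pairs of 1 group in model 1, and each result of model 1 was also computed with the pair averaged as 1 library. The markers that define erythroid cells were high in all groups: the summed level of the 8 listed of 9 erythroid markers was 1961 to 4982 CPM, against at most 10.1 CPM for the myeloid and 0.712 CPM for the lymphoid markers. Sums were higher and less even for mast cell and basophil (5.53 to 207 CPM), megakaryocyte (27.4 to 359 CPM) and stromal and endothelial markers (0.102 to 277 CPM), and their part in the results below was not tested.

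In GRCm38 (GENCODE M21 annotation) the genes lie, over their whole length with exons and introns, as follows: Slc4a1 at chr11:102348824-102366203 (minus strand), Epb42 at chr2:121017891-121037072 (minus strand), Ank1 at chr8:22974844-23150497 (plus strand), Sptb at chr12:76580488-76710547 (minus strand), Rhag at chr17:40811126-40840754 (plus strand), Rhd at chr4:134864536-134896172 (plus strand), Kel at chr6:41686330-41704339 (minus strand) and Ermap at chr4:119175457-119190011 (minus strand). Compared per kilobase of exon, Rhag and Ermap had the highest levels of the 8 genes and Epb42 the lowest in each group. Rhag encodes the ammonia channel that the Rh complex is built on, and its median was 270.4 CPM per kb in TgSpi1FA+/+ preleukaemic cells of model 1, above the 133 CPM per kb of Ermap, which encodes an erythroid adhesion protein of the immunoglobulin family and carries the Scianna antigens in humans. The ranges of these genes did not overlap in the TgSpi1FA+/+ preleukaemic groups of both models, but did in the other 3 groups. Rhd (61.3 CPM per kb), Kel (46.9), Sptb (37.5) and Ank1 (30.0) followed in that group. Among these, the ranges of Rhd and Kel and of Kel and Sptb overlapped, whereas those of Sptb and Ank1 did not. Slc4a1 (8.76 CPM per kb) and Epb42 (3.12) came last, with overlapping ranges. In TgSpi1FA-/- leukaemic cells the order was Rhag (92.6 CPM per kb), Ermap (47.5), Sptb (24.8), Ank1 (17.2), Kel (13.6), Rhd (11.4), Slc4a1 (10.5) and Epb42 (9.74), and of these neighbours only the ranges of Sptb and Ank1 stayed apart. Rhd thus held rank 3 in TgSpi1FA+/+ preleukaemic and rank 6 in TgSpi1FA-/- leukaemic cells of model 1. In the leukaemic cells of model 2, Slc4a1 and Epb42 lay at 0.957 and 0.225 CPM per kb, and the range of Slc4a1 did not reach that of Ank1 (4.18 CPM per kb), the next gene above.

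**Figure D1:**
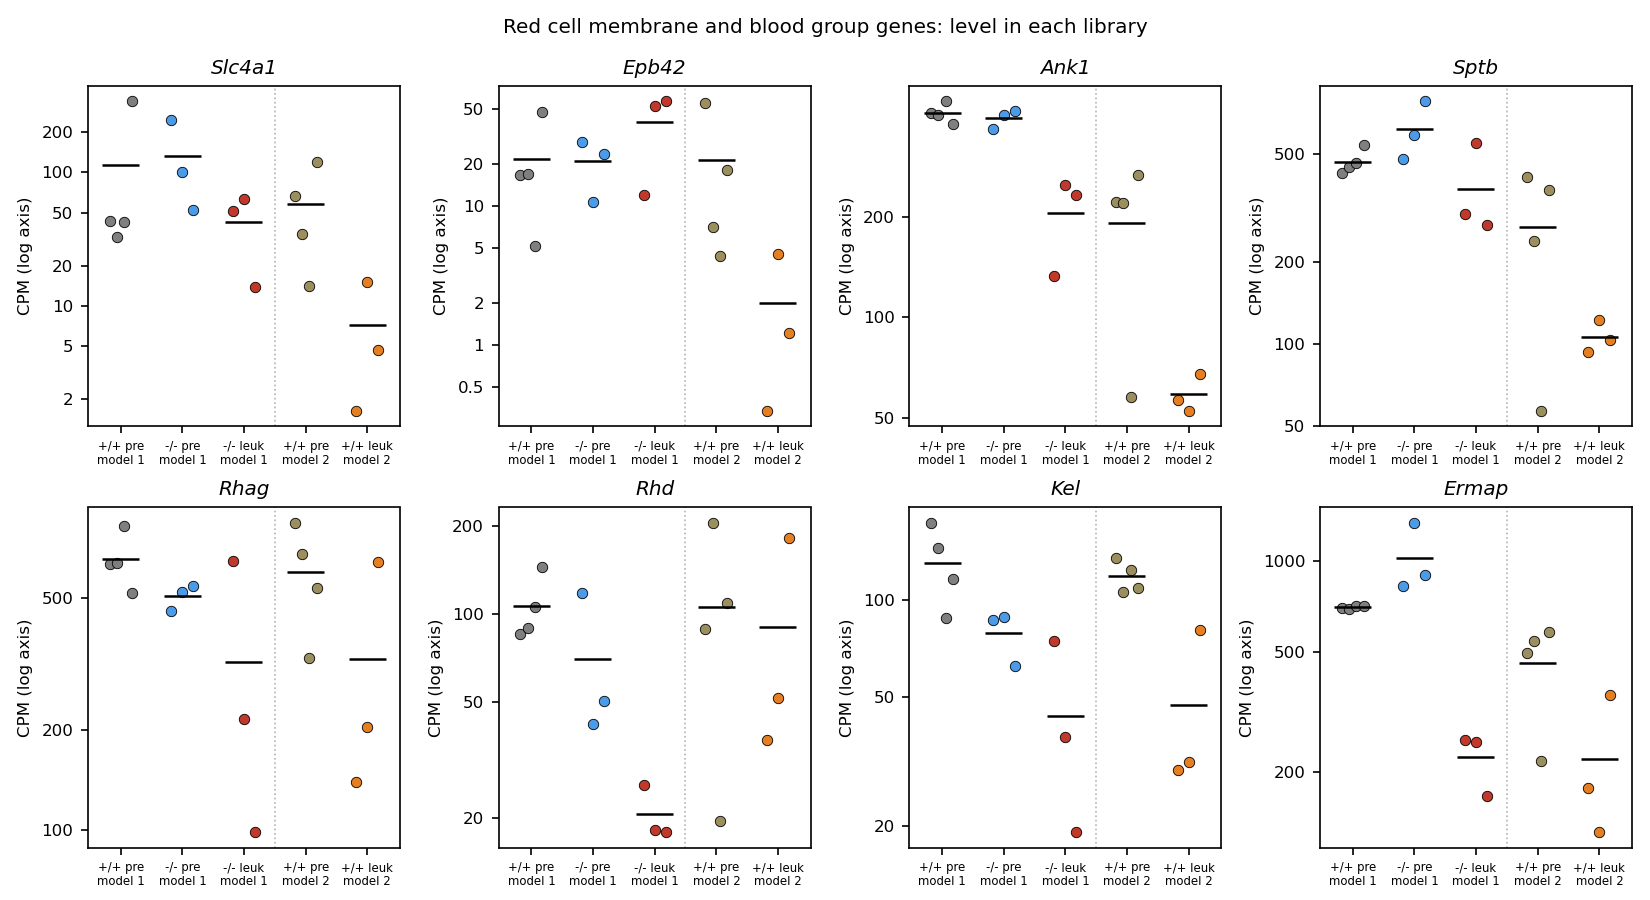
Level of each gene in each of the 17 libraries, in CPM on a log axis, by group (pre, preleukaemic; leuk, leukaemic; bars are group means of CPM, and the dotted line parts the models). The 3 TgSpi1FA-/- leukaemic libraries lie below all preleukaemic libraries of model 1 for Ank1, Rhd and Ermap, whereas the groups overlap for Sptb and Epb42.

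Between TgSpi1FA-/- leukaemic and TgSpi1FA-/- preleukaemic cells, which asks what changes with progression when Fanca is absent, Ermap, Rhd and Ank1 fell. Ermap was 4.55-fold, Rhd 3.38-fold and Ank1 1.92-fold lower in leukaemic cells. They were 3 of 8 genes called lower, with none called higher, where a call needs a change of 1.5-fold or more together with a Benjamini-Hochberg adjusted p below 0.05 in edgeR's quasi-likelihood test, and where 6.49% of the 13393 genes tested were called lower and 13.3% in either direction. The summed erythroid markers were 3089 to 4148 CPM in the preleukaemic and 1961 to 3223 CPM in the leukaemic group, and the summed megakaryocyte markers 82.7 to 148 and 177 to 359 CPM. In TgSpi1FA+/+ preleukaemic cells of model 1 the megakaryocyte markers summed to 117 to 287 CPM, a range that overlaps the leukaemic one. The fitted log2 fold change was below 0 for 7 of 8 genes, with a median of -0.90, against 50.1% of all genes and a median of -0.0012. The unadjusted p was under 0.05 with a lower level for 4 genes, where 16.1% of all genes had this. The groups did not overlap for 3 genes, each lower, where 19.3% of all genes were apart in this direction.

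In model 1, Ermap had 699, 691, 709 and 710.4 CPM in the TgSpi1FA+/+ preleukaemic libraries preleukemic_445, preleukemic_479, preleukemic_451 and preleukemic_138, 827, 1337 and 899.9 CPM in the TgSpi1FA-/- preleukaemic libraries preleukemic_77, preleukemic_224 and preleukemic_40, and 256, 252 and 166 CPM in the TgSpi1FA-/- leukaemic libraries leukemic_26, leukemic_28 and leukemic_39. All 3 leukaemic libraries lay below all 7 preleukaemic ones, the TgSpi1FA+/+ libraries were almost equal, and the TgSpi1FA-/- preleukaemic libraries were all above them. The log2 fold change of the leukaemic against the preleukaemic TgSpi1FA-/- cells was -2.19 (SE 0.22, adjusted p = 0.00241), with a 95% confidence interval of -2.68 to -1.69. Ermap was called under every alternative tried for this comparison, and its adjusted p reached at most 0.0189. In model 2, the preleukaemic mice preleukemic_633, preleukemic_663, preleukemic_812 and preleukemic_837 had 495, 542, 218 and 580.3 CPM of Ermap, and the leukaemic mice leukemic_601, leukemic_606 and leukemic_921 had 178, 126 and 361 CPM. These groups overlapped through preleukemic_812 and leukemic_921, with a log2 fold change of -1.05 (SE 0.45, adjusted p = 0.251).

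Rhd encodes the Rh polypeptide that pairs with Rhag at the surface. Rhd had 85.7, 89.7, 106 and 144 CPM in the TgSpi1FA+/+ preleukaemic libraries, 118, 42.1 and 50.3 CPM in the TgSpi1FA-/- preleukaemic libraries and 26, 18.2 and 17.9 CPM in the TgSpi1FA-/- leukaemic libraries of model 1, in the same order of mice. The leukaemic libraries were the lowest 3, and preleukemic_77 stood above the other TgSpi1FA-/- preleukaemic libraries. Rhd had a leukaemic log2 fold change of -1.76 (SE 0.39, adjusted p = 0.0241), and of -1.14 without preleukemic_77. The call was lost without leukemic_28 (adjusted p = 0.0855) or leukemic_39 (adjusted p = 0.0722), in a fit of the 2 compared groups alone (adjusted p = 0.0616) and with all 17 libraries in 1 fit (adjusted p = 0.127), and over all alternatives the adjusted p ran from 0.00109 to 0.127. Its level in model 2 was 88.9, 205, 19.6 and 109 CPM in the preleukaemic libraries and 36.9, 51.6 and 182 CPM in the leukaemic ones. Here the groups overlapped across most of their range, and the log2 fold change was -0.23 (SE 0.79, adjusted p = 0.897).

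Rhag did not pass the test, and its leukaemic libraries were uneven. Rhag had 629, 636, 823 and 517 CPM in the TgSpi1FA+/+ preleukaemic libraries, 456, 519 and 543 CPM in the TgSpi1FA-/- preleukaemic libraries and 643, 217 and 98.6 CPM in the TgSpi1FA-/- leukaemic libraries of model 1, in the same order of mice. The leukaemic mouse leukemic_26 lay above all TgSpi1FA-/- preleukaemic libraries, while leukemic_28 and leukemic_39 lay below all others of the model. The study reports a Kit mutation in leukemic_26 and an Nras mutation in leukemic_28 and leukemic_39, whose part in these levels was not tested. Rhag gave a value of -0.66 (SE 0.54, adjusted p = 0.427) on the log2 scale with all libraries and -1.68 without leukemic_26, where Rhag was called (adjusted p = 0.0163, the lowest of 0.0163 to 0.785 over all alternatives). Its level in model 2 was 838, 677, 329 and 535 CPM in the preleukaemic libraries and 140.2, 204 and 639 CPM in the leukaemic ones. The leukaemic mouse leukemic_921 reached the level of the preleukaemic ones, and the log2 fold change was -0.86 (SE 0.56, adjusted p = 0.423). Per kilobase, the level of Rhd was 0.188 to 0.410 of that of Rhag in TgSpi1FA+/+ preleukaemic, 0.119 to 0.379 in TgSpi1FA-/- preleukaemic and 0.0593 to 0.266 in TgSpi1FA-/- leukaemic libraries, so that these groups overlapped in the ratio of both Rh genes.

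Promoter sequences were looked up because 3 genes, Ermap, Rhd and Ank1, were called lower in the TgSpi1FA-/- leukaemic cells of model 1. RefSeq promoters (GRCm38.p6, 250 bases before to 50 after each start) matched 6 of 8 genes. Slc4a1 and Ank1 have no entry. The letters AGATAA or TGATAA, forms of the GATA motif searched on both strands, were in 5 of 6 promoters, all but that of Sptb, and in 18.6% of 32817 mouse promoters. CACCC, the core of the motif bound by KLF1, was in 5 of 6 and in 57.5% of all, and GAGGAAG, a PU.1 form, was in 1 of 6 (Rhd) and in 13.6% of all. Such a match is a description of letters and not a shown binding site. The stretches upstream of the annotated start are shown for the genes with the largest decrease between leukaemic and preleukaemic TgSpi1FA-/- cells, Ermap (chr4:119190012-119190245, minus strand) and Rhd (chr4:134864286-134864535, plus strand), and for Rhag (chr17:40810899-40811125, plus strand), the partner of Rhd, from the C57BL/6J reference and not from the mice studied. Capitals mark the GATA form, which reads TTATCA where it lies on the other strand.
Ermap: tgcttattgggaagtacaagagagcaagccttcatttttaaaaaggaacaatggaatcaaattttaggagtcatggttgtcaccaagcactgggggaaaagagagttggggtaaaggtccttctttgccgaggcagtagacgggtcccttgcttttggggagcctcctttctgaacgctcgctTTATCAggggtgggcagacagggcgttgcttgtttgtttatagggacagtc
Rhd: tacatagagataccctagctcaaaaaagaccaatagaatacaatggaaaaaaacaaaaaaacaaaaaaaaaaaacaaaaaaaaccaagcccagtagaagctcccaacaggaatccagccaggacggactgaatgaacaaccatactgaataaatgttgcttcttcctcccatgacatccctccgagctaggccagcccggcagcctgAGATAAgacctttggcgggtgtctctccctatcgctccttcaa
Rhag: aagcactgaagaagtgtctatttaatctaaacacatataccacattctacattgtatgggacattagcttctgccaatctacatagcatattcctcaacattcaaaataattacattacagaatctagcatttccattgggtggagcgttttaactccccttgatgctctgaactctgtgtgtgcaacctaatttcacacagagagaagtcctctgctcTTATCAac
The match lay 62 to 67 bases before the RefSeq start in Ermap, 38 to 43 in Rhd and 26 to 31 in Rhag.

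Ank1 encodes ankyrin, the adaptor between band 3 and spectrin, and Sptb encodes the beta chain of erythroid spectrin. Ank1 had 408, 403, 442 and 378 CPM in the TgSpi1FA+/+ preleukaemic libraries, 366, 402 and 414 CPM in the TgSpi1FA-/- preleukaemic libraries and 133, 249 and 232 CPM in the TgSpi1FA-/- leukaemic libraries of model 1, in the same order of mice. Its preleukaemic levels lay close together in both genotypes, and all leukaemic libraries were below them. Ank1 changed by -0.94 (SE 0.21, adjusted p = 0.0238) on the log2 scale. The call was lost without preleukemic_224 (adjusted p = 0.0734) or preleukemic_40 (adjusted p = 0.0602) and in the fits of the compared groups or of all 17 libraries, and over all alternatives the adjusted p ran from 0.00569 to 0.134. Exons of Ank1 overlap an antisense gene, Gm15816, and exons of Sptb overlap Plekhg3 on the other strand, and the strand setting of the counting is not given in the sources used here.

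Sptb had 425, 447, 465 and 539 CPM in the TgSpi1FA+/+ preleukaemic libraries, 481, 588 and 782 CPM in the TgSpi1FA-/- preleukaemic libraries and 301, 548 and 273 CPM in the TgSpi1FA-/- leukaemic libraries of model 1, in the same order of mice. The leukaemic mouse leukemic_28 lay within the range of the TgSpi1FA-/- preleukaemic libraries, so the groups overlapped. The log2 fold change of Sptb was -0.72 (SE 0.28, adjusted p = 0.106), and it was called only without leukemic_28 (adjusted p = 0.0468, the lowest of 0.0468 to 0.368). The level of Ank1 in model 2 was 221, 219.9, 57.8 and 266 CPM in the preleukaemic libraries and 56.6, 52.5 and 67.6 CPM in the leukaemic ones. Ank1 and Sptb were both low in the preleukaemic mouse preleukemic_812, with 56.8 CPM of Sptb. The level of Sptb in model 2 was 414, 239, 56.8 and 370.3 CPM in the preleukaemic libraries and 93.6, 123 and 103 CPM in the leukaemic ones. The log2 fold changes in model 2 were -1.70 (SE 0.48, adjusted p = 0.162) for Ank1 and -1.34 (SE 0.58, adjusted p = 0.254) for Sptb.

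Kel encodes the endothelin-cleaving protease that carries the Kell antigens. Kel had 172, 145, 87.5 and 116 CPM in the TgSpi1FA+/+ preleukaemic libraries, 86.7, 88.4 and 62.2 CPM in the TgSpi1FA-/- preleukaemic libraries and 74.6, 37.6 and 19.2 CPM in the TgSpi1FA-/- leukaemic libraries of model 1, in the same order of mice. The leukaemic mouse leukemic_26 lay within the TgSpi1FA-/- preleukaemic range, and leukemic_28 and leukemic_39 below it. The log2 fold change was -0.85 (SE 0.44, adjusted p = 0.209), and Kel was called without leukemic_26 (-1.47, adjusted p = 0.0320, the lowest of 0.0320 to 0.442). Its level in model 2 was 134, 105, 123 and 108 CPM in the preleukaemic libraries and 29.8, 31.7 and 80.9 CPM in the leukaemic ones. The leukaemic libraries of model 2 were below all preleukaemic ones. Per kilobase, Kel stood at 1.2 to 2.74 times the level of Xk, whose product is linked to the Kell protein, in TgSpi1FA+/+ preleukaemic and at 0.648 to 1.83 times in TgSpi1FA-/- leukaemic libraries of model 1, ranges that overlapped.

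Slc4a1 had 43.2, 32.7, 42.6 and 339 CPM in the TgSpi1FA+/+ preleukaemic libraries, 245, 100.3 and 52.2 CPM in the TgSpi1FA-/- preleukaemic libraries and 51.2, 63.3 and 13.8 CPM in the TgSpi1FA-/- leukaemic libraries of model 1, in the same order of mice. The preleukaemic mouse preleukemic_138 stood far above the other TgSpi1FA+/+ libraries, and the leukaemic libraries overlapped with both preleukaemic groups. The log2 fold change of leukaemic against preleukaemic TgSpi1FA-/- cells was -1.63 (SE 1.02, adjusted p = 0.300), with a confidence interval of -3.93 to 0.67 that spans 0. It ran from -2.02 to -0.82 with a mouse left out, the latter without preleukemic_77. Epb42, the partner of band 3 that binds both it and ankyrin, was the only one of the 8 genes with a fitted increase. Epb42 had 16.8, 17, 5.16 and 47.9 CPM in the TgSpi1FA+/+ preleukaemic libraries, 29.0, 10.8 and 23.7 CPM in the TgSpi1FA-/- preleukaemic libraries and 12.0, 52.7 and 56.9 CPM in the TgSpi1FA-/- leukaemic libraries of model 1, in the same order of mice. It was higher in leukemic_28 and leukemic_39 than in any preleukaemic library of model 1, and lower in leukemic_26 than in preleukemic_77 and preleukemic_40. Its log2 fold change was 0.94 (SE 0.79, adjusted p = 0.448). Per kilobase, Epb42 stood at 0.109 to 0.469 times Slc4a1 in TgSpi1FA+/+ preleukaemic, 0.0971 to 0.410 in TgSpi1FA-/- preleukaemic and 0.211, 0.752 and 3.72 times in the leukaemic libraries leukemic_26, leukemic_28 and leukemic_39.

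**Figure D2:**
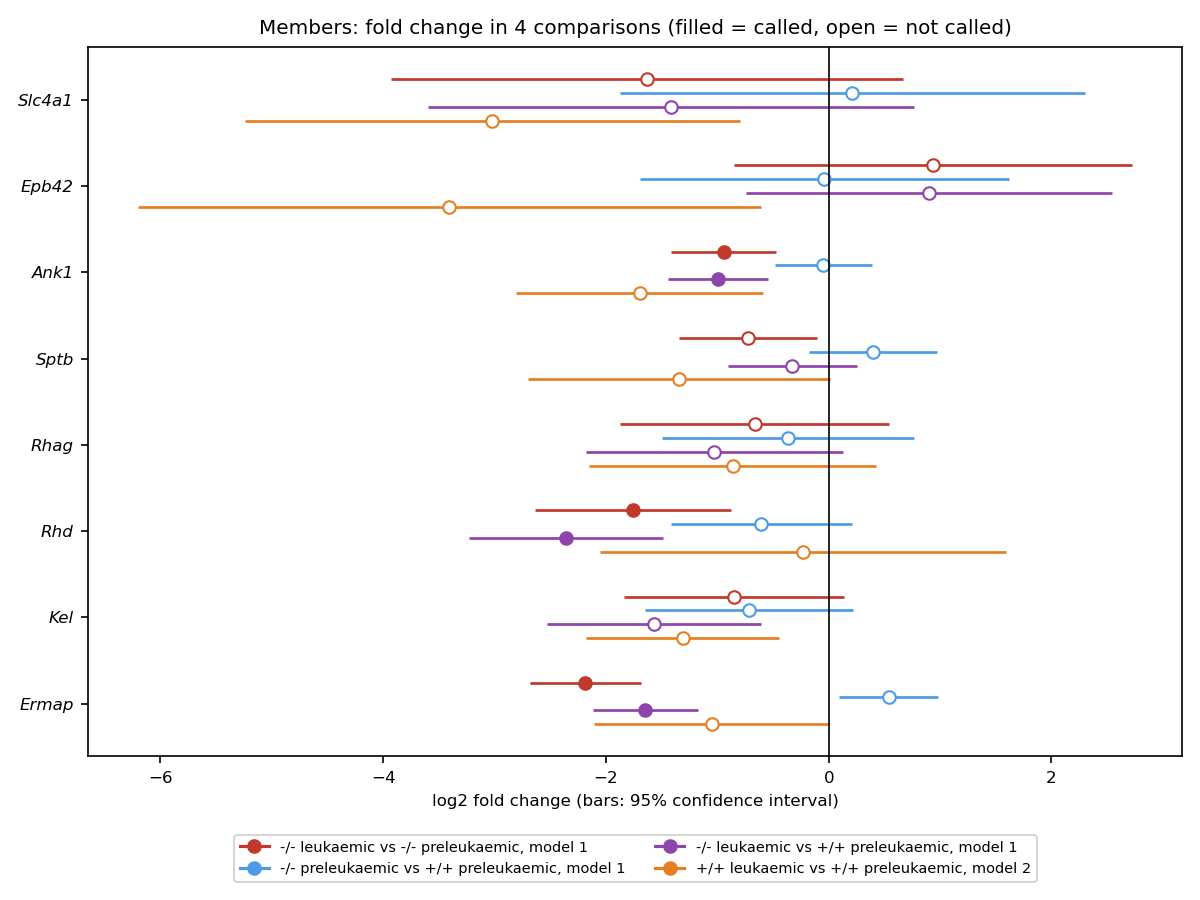
Log2 fold change of each gene in 4 comparisons, with 95% confidence intervals as bars (filled points were called, open points were not). Ermap, Rhd and Ank1 are filled in both comparisons of TgSpi1FA-/- leukaemic cells, no point is filled between the preleukaemic groups or in model 2, and the intervals of Slc4a1 and Epb42 are the widest in model 2.

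Between TgSpi1FA-/- and TgSpi1FA+/+ preleukaemic cells, which asks what the loss of Fanca does before leukaemia, 0 of 8 genes were called by edgeR's quasi-likelihood test, where 0.00747% of all genes were. DESeq2's Wald test also called 0, where it called 1.87% of all genes. The unadjusted p was under 0.05 for Ermap alone, which was 1.45-fold higher in TgSpi1FA-/- cells with no overlap between the groups (log2 fold change 0.54, SE 0.20, adjusted p = 0.535). Groups were apart in this direction for 4.26% of all genes. Ank1 differed by -0.05 on the log2 scale, with an interval of -0.49 to 0.39. The intervals were wider for Slc4a1 (-1.88 to 2.30) and Epb42 (-1.70 to 1.62), whose signs turned when single mice were left out. By edgeR's quasi-likelihood test the deleted gene Fanca, 38.4-fold lower in TgSpi1FA-/- cells, was not called either (log2 fold change -5.26, SE 0.65, adjusted p = 0.0759). The lack of calls thus says little about smaller changes of the 8 genes.

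TgSpi1FA-/- leukaemic cells were also set against TgSpi1FA+/+ preleukaemic cells, a comparison that shares its leukaemic libraries with the first one and its other libraries with the second. Ermap (-1.65, SE 0.21, adjusted p = 0.00764), Rhd (-2.36, SE 0.39, adjusted p = 0.0154) and Ank1 (-0.99, SE 0.20, adjusted p = 0.0247) were called lower, 3 of 8 genes where 3.46% of all genes were called lower and 7.01% in either direction. Kel had a log2 fold change of -1.57 (SE 0.43, adjusted p = 0.0555) and, with these 3 genes, groups that did not overlap, where 12.9% of all genes were apart and lower. The call of Ank1 was lost without preleukemic_445, preleukemic_479, preleukemic_451, leukemic_28 or leukemic_39 (adjusted p between 0.0577 and 0.0698) and with preleukemic_445 and preleukemic_479 averaged (adjusted p = 0.0690), and that of Rhd without leukemic_28 (adjusted p = 0.0749) or leukemic_39 (adjusted p = 0.0598). Without leukemic_26, Rhag (-2.05, adjusted p = 0.0106) and Kel (-2.20, adjusted p = 0.0123) were called as well.

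A further deposited table holds other counts for the mice of these 2 groups, with 35497594 to 171572736 counts per library. In it, 0 of the 8 genes were called by edgeR's quasi-likelihood test, where 1.59% of its 16799 genes were, 3 of the 8 had an unadjusted p under 0.05, and the log2 fold changes of Ermap, Rhd and Ank1 were -1.50, -1.92 and -1.23 (adjusted p = 0.175, 0.168 and 0.172). Ermap had 1424, 858, 919 and 1039 CPM in preleukemic_138, preleukemic_445, preleukemic_451 and preleukemic_479 and 661, 319 and 146 CPM in leukemic_26, leukemic_28 and leukemic_39, so the groups remained apart. Slc4a1 had 4.46 CPM in the library labelled preleukemic_445 of this table and 43.2 CPM in that of the first table. Over all genes, preleukemic_479 of this table was nearest to preleukemic_445 and preleukemic_479 of the first table (root mean square difference of log2 CPM 0.970 and 0.972), and preleukemic_445 of this table was nearest to preleukemic_451 of the first (1.22), so the library labelled preleukemic_445 in one table was not the nearest to its namesake in the other.

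In model 2, all 8 genes had a fitted decrease from preleukaemic to leukaemic TgSpi1FA+/+ cells, with a median log2 fold change of -1.33, but 0 of 8 passed edgeR's quasi-likelihood test, as did 0.0% of all 12970 genes. Of all genes, 51.6% had a fitted decrease, with a median of -0.03. The unadjusted p was under 0.05 for 4 of the genes, Epb42 (-3.41, SE 1.21, adjusted p = 0.193), Slc4a1 (-3.02, SE 0.96, adjusted p = 0.176), Ank1 (-1.70, SE 0.48, adjusted p = 0.162) and Kel (-1.31, SE 0.37, adjusted p = 0.162), where 11.4% of all genes had this with a lower level. DESeq2's Wald test called Slc4a1, Epb42 and Ank1, 3 of 8 where it called 2.34% of all genes lower. Only Kel had groups that did not overlap, where 10.4% of all genes were apart and lower. The summed erythroid markers were 3810 to 4982 CPM in preleukaemic and 2026 to 3796 CPM in leukaemic cells of model 2, and the mast cell and basophil markers 31.2 to 91.2 and 159 to 200.2 CPM, groups that did not overlap.

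In model 2, the preleukaemic mice preleukemic_633, preleukemic_663, preleukemic_812 and preleukemic_837 had 66.0, 34.4, 14.1 and 119 CPM of Slc4a1, and the leukaemic mice leukemic_601, leukemic_606 and leukemic_921 had 1.64, 15.3 and 4.68 CPM. The leukaemic mouse leukemic_606 lay just above the preleukaemic mouse preleukemic_812, which alone made the groups overlap. The level of Epb42 in model 2 was 55.9, 7.02, 4.37 and 18.3 CPM in the preleukaemic libraries and 0.333, 4.49 and 1.22 CPM in the leukaemic ones. Here leukemic_606 and preleukemic_812 again stood next to each other, and leukemic_601 was the lowest library of the model for both genes. Slc4a1 had a mean of 58.4 ± 45.7 CPM (SD, n = 4) in preleukaemic and 7.19 ± 7.15 CPM (SD, n = 3) in leukaemic cells. The library preleukemic_812 stood apart in the preleukaemic group, with its lowest level of all 8 genes but Kel, and without it the log2 fold change of Ank1 was -1.97 (adjusted p = 0.0636, the lowest of 0.0636 to 0.408 with a mouse left out). With all 17 libraries in 1 fit Ank1 was called (-1.66, adjusted p = 0.0180), as 1 of the 8 genes. That fit called 1161 of 14597 genes in model 2, where the fit of model 2 alone called 0 of 12970.

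**Figure D3:**
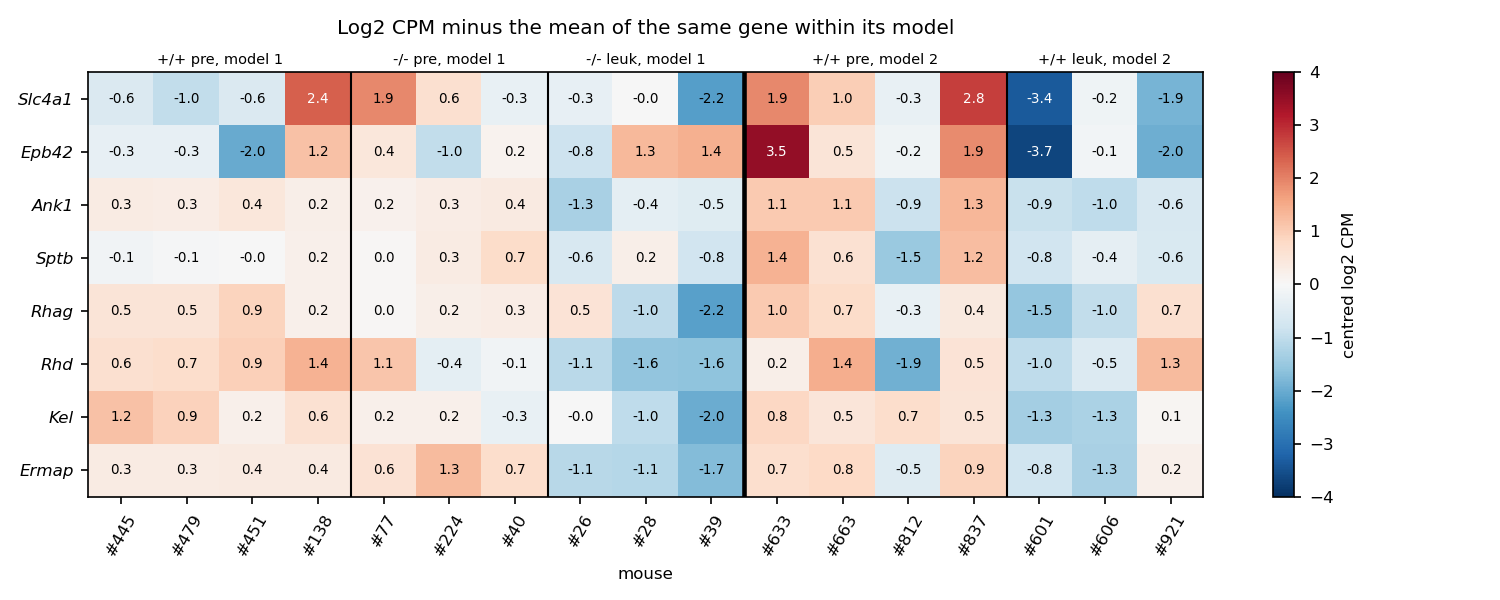
Log2 CPM of each gene in each library minus the mean of that gene within its model (red higher, blue lower; numbers are the same values, and the thick line parts the models). In model 1 the column of mouse leukemic_39 is low for every gene but Epb42, and in model 2 the preleukaemic mouse preleukemic_812 is below 0 for every gene but Kel.

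The leukaemic changes of both models were compared as an interaction in 1 fit of all 17 libraries, where genotype, strain and library protocol change together with the model and cannot be told apart. Of the 8 genes, 0 were called by edgeR's quasi-likelihood test, where 4.61% of all 14597 genes were, and 2 had an unadjusted p under 0.05, as had 25.8% of all genes. Epb42 changed by 4.30 more on the log2 scale in model 1 than in model 2 (interval 1.17 to 7.43, adjusted p = 0.0877), and DESeq2's Wald test called this difference, as it did for 13.5% of all genes. Ermap changed by -1.16 (interval -2.25 to -0.06, adjusted p = 0.170), the opposite sign. For Rhd the difference was -1.56, with an interval of -3.54 to 0.43, which spans 0.

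Of 50 other genes of the red cell membrane and of blood groups, 41 passed the filter on low counts in model 1. Between leukaemic and preleukaemic TgSpi1FA-/- cells, 2 of them fell and 3 rose, 6.49% and 6.82% of all genes being called lower and higher. Slc12a7, among those that rose, passed the filter through its leukaemic libraries alone. The median log2 fold change of the 41 genes was 0.02. DESeq2's Wald test called 13 of them, and 19.8% of all genes. By role, 0 of 7 tested genes of the membrane skeleton fell and 1 rose, 1 of 6 genes of the band 3 and Rh complexes fell, 1 of 16 transporters and channels fell and 1 rose, and 1 of 12 blood group surface proteins rose.

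Stom, which encodes stomatin, a membrane protein missing in stomatocytic red cells, fell from 181, 149 and 143 CPM in preleukemic_77, preleukemic_224 and preleukemic_40 to 48.1, 43.5 and 62.7 CPM in leukemic_26, leukemic_28 and leukemic_39, with a log2 fold change of -1.62 (SE 0.24, adjusted p = 0.00774). Stom also fell against TgSpi1FA+/+ preleukaemic cells (-1.87, SE 0.23, adjusted p = 0.00680) and had -1.22 in model 2 (adjusted p = 0.162). Piezo1, a mechanically gated cation channel, fell from 242, 296 and 220.2 to 169, 125 and 93.9 CPM (-0.97, SE 0.21, adjusted p = 0.0206). The groups did not overlap for either gene. Stom was called with each mouse left out. The call of Piezo1 was lost without preleukemic_77, preleukemic_224, leukemic_28 or leukemic_39.

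Slc12a7, a potassium-chloride cotransporter, was nearly silent before leukaemia. It had 0, 1 and 0 counts in the preleukaemic and 88, 380 and 610 counts in the leukaemic TgSpi1FA-/- libraries, at least 97.4-fold higher against a floor of 3 counts per library. It passed the filter on low counts through the leukaemic libraries alone, so its call (adjusted p = 0.00953) adds no support beyond these counts. In model 2 it stayed at 0 to 9 counts in each library and was not tested. Tmod1, which encodes a tropomodulin that caps the short actin filaments of the skeleton, had 53.6, 52.3, 18.2 and 43.0 CPM in TgSpi1FA+/+ preleukaemic, 7.81, 9.74 and 5.89 CPM in TgSpi1FA-/- preleukaemic and 75.6, 112 and 105 CPM in leukaemic libraries. It rose by 3.64 (SE 0.42, adjusted p = 0.00396) on the log2 scale from a TgSpi1FA-/- preleukaemic level below that of all TgSpi1FA+/+ libraries. Cd151, a tetraspanin that carries the Raph antigen, rose from 18.4, 16.4 and 20.7 to 61.7, 45.6 and 39.8 CPM (1.41, SE 0.34, adjusted p = 0.0296), a call that was lost without any one of the 6 TgSpi1FA-/- mice. Tmod1 was called with each mouse left out. So was Slc12a7, whose entry into the test rested on its leukaemic libraries.

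In model 2, 0 of 39 other genes tested were called by edgeR's quasi-likelihood test (12 had an unadjusted p under 0.05, against 19.9% of all genes, and DESeq2's Wald test called 5, against 3.45% of all), 30 of 39 had a fitted decrease, against 51.6% of all genes, and the median log2 fold change was -0.53. All 7 skeleton genes had a fitted decrease there, with a median of -1.35. Between the preleukaemic groups of model 1, 0 of 41 were called (4 had an unadjusted p under 0.05, against 8.65% of all genes, and DESeq2's Wald test called Tmod1). Here too 30 of 41 had a fitted decrease in TgSpi1FA-/- cells, against 49.3% of all genes, with a median log2 fold change of -0.20. All 7 skeleton genes were among them, with a median of -0.56, so this direction was not particular to model 2. Against TgSpi1FA+/+ preleukaemic cells, leukaemic TgSpi1FA-/- cells had 1 gene called lower (Stom) and 2 higher (Slc12a7 and Cd151), where 3.46% and 3.55% of all genes were called lower and higher, and DESeq2's Wald test called 10, and 14.8% of all genes. Of the genes that edgeR called, Stom was called with each mouse left out, Slc12a7 was lost without preleukemic_445 or leukemic_28, and Cd151 without preleukemic_445, preleukemic_479, preleukemic_451, leukemic_28 or leukemic_39. In this comparison too, Slc12a7 was in the test through its leukaemic libraries alone. The enzymes that build carbohydrate blood groups were low in these blasts, and 0 of 8 passed the filter of model 1. Abo, Fut1 and A4galt had no more than 3 counts in every library of model 1, and B3galnt1 had no more than 1 in model 2. Neither table lists Fut2 or Gbgt1, and that of model 2 does not list Abo or A4galt.

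**Figure D4:**
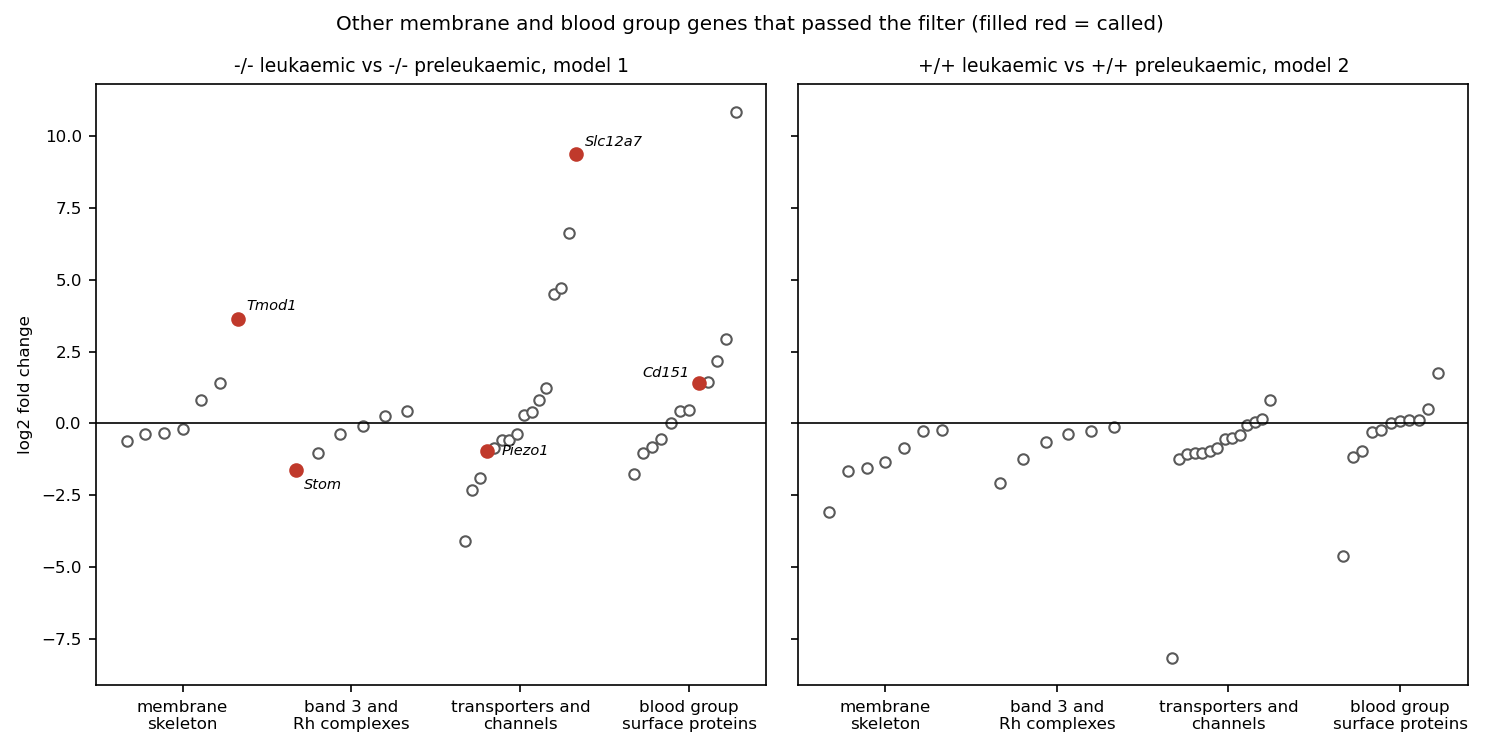
Log2 fold change of the other membrane and blood group genes that passed the filter, by role, in leukaemic against preleukaemic cells of model 1 (left, 41 genes) and model 2 (right, without the 1 carbohydrate enzyme tested there), with called genes in red and named. Model 1 holds 2 called genes below and 3 above 0, and model 2 holds none, with most points below 0.

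A list of 10 transcription factors held erythroid factors and Spi1, the transgene. Of these, 3 fell between preleukaemic and leukaemic TgSpi1FA-/- cells and 0 rose, where 6.49% and 6.82% of all genes were called lower and higher. A fitted decrease was found for 9 of 10, Spi1 among them, where 50.1% of all genes had one. Klf1, a master regulator of late erythroid genes, fell from 349, 351 and 292 CPM to 158, 154 and 99.2 CPM (-1.27, SE 0.18, adjusted p = 0.00626). Lmo2 (-1.01, SE 0.24, adjusted p = 0.0295), the bridging subunit of the GATA1 and TAL1 complex, and Gfi1b (-0.75, SE 0.13, adjusted p = 0.0127), a repressor in erythroid cells, fell as well. Both fell from TgSpi1FA-/- preleukaemic levels above all TgSpi1FA+/+ preleukaemic libraries (Lmo2 545 to 814 against 372 to 491 CPM, Gfi1b 244 to 264 against 199 to 230 CPM). Against TgSpi1FA+/+ cells neither was called (Lmo2 -0.45, adjusted p = 0.241, and Gfi1b -0.51, adjusted p = 0.0421 but only 1.43-fold). Gata1 itself had a log2 fold change of -0.33 (SE 0.16, adjusted p = 0.170), and Spi1 -1.32 (SE 1.10, adjusted p = 0.443), with the low value of leukemic_39. Klf1 was called lower against TgSpi1FA+/+ preleukaemic cells too (-1.05, SE 0.17, adjusted p = 0.0152), and in model 2 no factor was called by edgeR's quasi-likelihood test, with -0.47 for Klf1 and -0.62 for Gata1, while 4 of 10 were lower with an unadjusted p under 0.05, as were 11.4% of all genes. The call of Klf1 against TgSpi1FA-/- preleukaemic cells held with each mouse left out, that of Gfi1b was lost without preleukemic_224 and that of Lmo2 without any one of 5 mice, and the call of Klf1 against TgSpi1FA+/+ cells was lost without preleukemic_445, preleukemic_479 or leukemic_28. Zfpm1, the GATA1 cofactor FOG, was the factor called in the comparison of both models (1.45, SE 0.35, adjusted p = 0.0365), a call lost without any one of 9 of the 17 mice. In model 2, Zfpm1 had 153, 129, 140.3 and 200.1 CPM in the preleukaemic and 70.2, 41.7 and 35.1 CPM in the leukaemic libraries, groups that did not overlap, with -1.67 on the log2 scale (adjusted p = 0.162). The part of these factors in the levels of the membrane genes was not tested.

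The genes differed in how much they varied. Over the 10 libraries of model 1, the highest level was 24.6 times the lowest for Slc4a1 and 2.86 times for Sptb, and over the 7 libraries of model 2 it was 168 times for Epb42 and 4.51 times for Kel. Ranked by the SD of log2 CPM among all tested genes, Slc4a1 stood at percentile 83.0 in model 1 and 94.1 in model 2, Epb42 at 78.9 and 95.4, and Sptb at 46.0 and 82.4. The genes whose log2 CPM, centred within each model, was nearest to that of each member over the 17 libraries are a description only, since all genes of a library share its depth and cell makeup. They were Ltbp1 for Slc4a1 (root mean square difference 0.717), Slc38a5 for Epb42 (0.758), Nup214 for Ank1 (0.297), Zfp553 for Sptb (0.303), Steap3, an erythroid ferrireductase, for Rhag (0.395), Tmc4 for Rhd (0.624), Ripor1 for Kel (0.391) and Cep128 for Ermap (0.297). The median profile of the 8 genes was nearest to Arel1 (0.298), followed by Hk1 (0.326), Med13l (0.342), Mns1 (0.349) and Larp1b (0.351). In their genomic neighbourhood, the genes within 1 Mb of Ermap had a median log2 fold change of -0.22 between leukaemic and preleukaemic TgSpi1FA-/- cells (18 genes, 1 called lower and 1 higher), those around Rhd 0.23 (34 genes, 2 lower and 4 higher) and those around Ank1 0.01 (18 genes, 2 lower and 1 higher).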

How the data were processed

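Poly-A RNA of cultured blasts was sequenced from 17 mice with a stranded mRNA kit. The submitters' processing notes name bcl2fastq 2.17.1.14, STAR 2.5.3a and HTSeq 0.6.1p1, and the deposited values are raw read counts per gene, with no pooling of mice. From these counts, CPM and fold changes were computed with edgeR 4.0.16 in R 4.3.3 (TMM scaling, filterByExpr, quasi-likelihood test, Benjamini-Hochberg adjustment over all tested genes), with the 3 groups of model 1 in 1 fit, model 2 in another and all 17 libraries in the fit that compares the models. Calls needed an adjusted p below 0.05 with a change of 1.5-fold or more. Alternatives were other scaling and filters, DESeq2 1.42.0, other sample sets, the second deposited count table and each mouse left out. Lengths were unions of exons in GENCODE M21. The labels give 1 library per mouse, so p-values measure the spread between mice if the labels hold. For preleukemic_445 and preleukemic_479, which stood unusually close, this was not tested. With this pair averaged, calls over all genes fell from 1782 to 1272 between leukaemic and preleukaemic TgSpi1FA-/- cells. Against TgSpi1FA+/+ preleukaemic cells, calls over all genes fell from 939 to 112. The genes, the lists of related genes and the markers were chosen with earlier results of these data known. Named genes are the 8 members, called genes of the lists, listed genes with no more than 3 counts in a table, Spi1 and Fanca as checks of the labels, and the nearest genes by profile. Xk, Gata1, the genes that overlap a member and those a table does not list were named after values were seen. Some genes of these lists are not reported here. Scripts were tested on simulated data.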

Additional observations from a re-analysis of the deposited data

Results flagged for a closer look

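Slc4a1 had 339 CPM in the TgSpi1FA+/+ preleukaemic mouse preleukemic_138, a gap to the other 3 libraries (32.7 to 43.2 CPM) that passed Dixon's 95% limit for 4 samples. In the second deposited table, Slc4a1 had 1223 CPM in preleukemic_138 and 4.46, 58.7 and 144 CPM in preleukemic_445, preleukemic_451 and preleukemic_479. The flagged set was 1 of 16 sets of values examined, and chance flags about 1 in 20. The other 5 are genes of the wider membrane list whose leukaemic change differed between the models, of 51 genes examined, by edgeR's quasi-likelihood test of the difference (model 1 minus model 2, log2 scale), which called 4.61% of all genes. Each of these calls was lost without any one of 7 to 13 of the 17 mice. Without preleukemic_77, preleukemic_224, preleukemic_40, leukemic_28, leukemic_39, leukemic_601 or leukemic_921, 0 of them held. Over all genes, each of these fits called 1 to 58 genes, against 673 with all mice. Tmod1 differed by 5.27 (adjusted p = 0.0292), Epb41, which links spectrin to actin, by 2.74 (adjusted p = 0.0379), and Cd55, a complement regulator, by -2.78 (adjusted p = 0.0380). Abcg2, a transporter that carries the Junior antigen, differed by 14.74 (adjusted p = 0.0298), and B4galnt2, a glycosyltransferase, by 9.14 (adjusted p = 0.0468). The values of Abcg2 and B4galnt2 rest on groups at or near 0 counts and are not bounds; in model 2, the leukaemic libraries held 3, 0 and 11 counts of Abcg2, and B4galnt2 had 84, 57, 0 and 1 counts in the preleukaemic and 1 count in each leukaemic library.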

How the results depend on the processing

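Calls at these sample sizes moved with the fit, and the cause was not tested. Between leukaemic and preleukaemic TgSpi1FA-/- cells, 1 of the 8 genes was called with only the compared groups or with all 17 libraries in 1 fit. With a mouse left out, 2 to 5 of the 8 were called. Over all genes, calls in this comparison were 1205 of 12794 with only the compared groups and 1115 of 14597 with 17 libraries. With a mouse left out they ran from 414 to 2319, against 1782 in the main fit. Of the other membrane genes, DESeq2 called 13 against 5 (19.8% of all genes against 13.3%), and 3 to 11 were called with a mouse left out. Against TgSpi1FA+/+ preleukaemic cells the 8 genes gave 1 call with 17 libraries, 0 in the second table and 1 to 5 with a mouse left out. The other genes gave 10 by DESeq2 (14.8% of all genes) and 1 to 9 with a mouse left out. All genes gave 593 of 14597 with 17 libraries and 53 to 1911 with a mouse left out, against 939 in the main fit. Between the preleukaemic groups, the other genes gave 1 call by DESeq2 and 0 to 1 with a mouse left out. All genes gave 256 of 13680 by DESeq2 and 1 to 16 with a mouse left out. In model 2, DESeq2 called 3 of the 8 genes and the fit of 17 libraries 1, and of the other genes 5 and 4. Of all genes they called 470 of 13619 and 1161 of 14597. In the comparison of the models, DESeq2 called 1 of the 8 genes, with 0 to 1 with a mouse left out. It called 9 of the other genes, with 3 without a filter and 0 to 7 with a mouse left out. Of all genes, DESeq2 called 2037 of 15048, the unfiltered fit 279 of 22088 and fits without a mouse 1 to 1359. Signs turned for genes that were not called. Between the preleukaemic groups, Slc4a1 ranged from -0.59 to 1.75 with a mouse left out, with -0.06, -0.10, -0.07 and -0.59 without preleukemic_445, preleukemic_479, preleukemic_451 or preleukemic_77, and -0.08 with preleukemic_445 and preleukemic_479 averaged, an alternative chosen after seeing the data, while Epb42 ranged from -0.37 to 0.70, with 0.70 without preleukemic_138 and 0.27 without preleukemic_224. Against TgSpi1FA+/+ cells, leukaemic Slc4a1 ranged from -1.79 to 0.12, the latter without preleukemic_138, and Epb42 -0.14 in the second table. Rhd in model 2 ranged from -1.24 to 0.31, with 0.31, 0.16 and 0.05 without preleukemic_663, leukemic_601 or leukemic_606. In the comparison of the models, Rhag ranged from -0.86 to 1.12, with -0.86, -0.03, -0.20 and -0.08 without leukemic_26, preleukemic_633, leukemic_601 or leukemic_606, and Kel from -0.19 to 1.08, with -0.19 without leukemic_26. No paired analysis was possible because the replicate numbers are those of the mice and no groups share any. With 3 or 4 mice a group, the wide intervals of Slc4a1 and Epb42 limit what could be detected. Between the preleukaemic groups, the deleted gene Fanca was itself not called by edgeR's quasi-likelihood test.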
